A study of Mus musculus with 12 samples.

Results

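The nucleosome remodelling and deacetylase (NuRD) complex was followed in the RNA of mouse pre-iPSCs through 10 of its subunit genes, Mbd2, Mbd3, Chd4, Hdac1, Hdac2, Mta1, Mta2, Mta3, Gatad2a and Gatad2b. They were taken by gene symbol from the 20325 genes in the files, and all 10 passed the count filter that left 13400 genes for testing. The study asked how ascorbic acid (AA) and 2i, alone and together, move stalled reprogramming intermediates towards the iPSC state. Pre-iPSCs are clonal lines with an ESC-like morphology, made from Nanog-GFP reporter fibroblasts with retroviruses carrying Oct4, Sox2, c-Myc and Klf4, in which the reporter is silent. Pre-iPSCs were grown without feeder cells for 48 h (day 2) in ESC medium with DMSO as the control, with AA at 50 μg per ml, with 2i (a MEK inhibitor at 1 μM and a GSK inhibitor at 3 μM) or with AA+2i. Each condition had 3 biological replicates, labelled A, B and C, and every group shared the same time point. The paper does not state which pre-iPSC line gave each library. Its methods also describe fibroblasts and astrocytes as sources of pre-iPSCs, heterozygous for R26 rtTA and with the reprogramming factors in a single cassette.

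NuRD joins chromatin remodelling and histone deacetylation in a single complex. The helicase Chd4 moves nucleosomes, Hdac1 and Hdac2 remove acetyl groups from histones, the Mta proteins hold the deacetylases, and the Gatad2 proteins bridge the deacetylase part to Chd4 through an Mbd protein. Mbd2 binds methylated CpG sites, Mbd3 has largely lost that binding, and they are found in separate complexes. NuRD containing Mbd3 is known in embryonic stem cells for tempering pluripotency genes and allowing lineage commitment, and its part in reprogramming has been debated.

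Library totals of expected counts ran from 16173322 to 54392719. The relation between expression and transcript GC content was not the same in all libraries. It was read from a smoothed curve for each library, the deviation of log2 CPM from the mean of the 12 libraries against GC content. For CPM, counts were scaled to the library total times a normalization factor (RLE, 0.87 in DMSO A to 1.07 in DMSO B). At a GC content of 60% the curve stood at -1.73 in DMSO A and -1.49 in AA A on the log2 scale, while at 40% these libraries stood at 0.90 and 0.71. The other libraries lay between -0.55 (2i A) and 1.14 (AA+2i C) at 60%. DMSO A and AA A therefore stand apart, and fold changes are also given without them. Of 10 genes listed as markers of fibroblasts or feeder cells, the summed level was 5.81 to 20.2 TPM under DMSO, 11.7 to 26.1 under AA, 7.30 to 10.03 under 2i and 10.6 to 14.0 under AA+2i. Lum was at 0 in every library, and Thy1 ran from 0.54 to 16.0 TPM. Of 5 epithelial and pre-iPSC genes, Cdh1, the epithelial cadherin, was at 31.8 to 143 TPM and Epcam at 60.5 to 228 TPM. Cldn7 was at 0.30 to 8.47 TPM, Cldn6 at 0 to 1.03 and Fut4 at 0 to 0.12. Nanog was at 2.93 to 40.9 TPM.

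Mbd3 was the most GC-rich of the subunits. On the mm9 build its gene lies on chromosome 10 from 79855284 to 79862295 on the minus strand. The GENCODE transcript nearest to the deposited length (1566 bases against 1589 in DMSO A) had 7 exons. Its GC content was 62.7%, above 98.8% of the tested genes. The median of the tested genes was 50.5%. Hdac2, also on chromosome 10 (36694350 to 36721695, plus strand), was at the other end of the subunits with 44.4%. The most GC-rich coding stretch of 90 bases within 1 exon is shown for both, from the mm9 genome and on the coding strand, because the curves of the libraries differ along this axis. Capitals mark G and C. The Mbd3 stretch is in exon 6 at chr10:79855850-79855939, with 59 G or C bases and 4 CpG sites. The Hdac2 stretch is in exon 8 at chr10:36713582-36713671, with 51 G or C bases and 3 CpG sites.
Mbd3: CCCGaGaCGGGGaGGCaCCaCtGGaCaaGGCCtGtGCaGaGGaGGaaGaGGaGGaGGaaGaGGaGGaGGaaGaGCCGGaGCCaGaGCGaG
Hdac2: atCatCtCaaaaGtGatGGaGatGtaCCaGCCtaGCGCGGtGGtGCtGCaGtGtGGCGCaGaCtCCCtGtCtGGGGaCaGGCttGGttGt
In 23.1% of all windows of 90 bases along the Mbd3 transcript the GC content reached 65%, against 8.61% for Hdac2 and 0% for Gatad2b. Mbd2 had a larger share of such windows than Mbd3, 35.4%, and a higher GC content in its coding sequence (61.7% against 58.1%).

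The remaining subunits lay between these extremes. Mta1 (chromosome 12, 114336489 to 114375417) had a GC content of 57.2% and Mbd2 (chromosome 18, 70727843 to 70785785) of 56.5%. Mta3 (chromosome 17, 84105503 to 84223055) was at 54.6%, Gatad2a (chromosome 8, 72430968 to 72520278) at 54.3% and Mta2 (chromosome 19, 9016365 to 9026793) at 53.4%. Chd4 (chromosome 6, 125045999 to 125080609) was at 52.6%, Gatad2b (chromosome 3, 90145576 to 90162042) at 50.5% and Hdac1 (chromosome 4, 129193348 to 129219957) at 50.0%. Mbd2 carried the most CpG sites per kilobase of transcript, 65.5, ahead of Mta3 (56.7) and Mbd3 (54.3), and Gatad2b carried the fewest, 24.1.

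**Figure D1:**
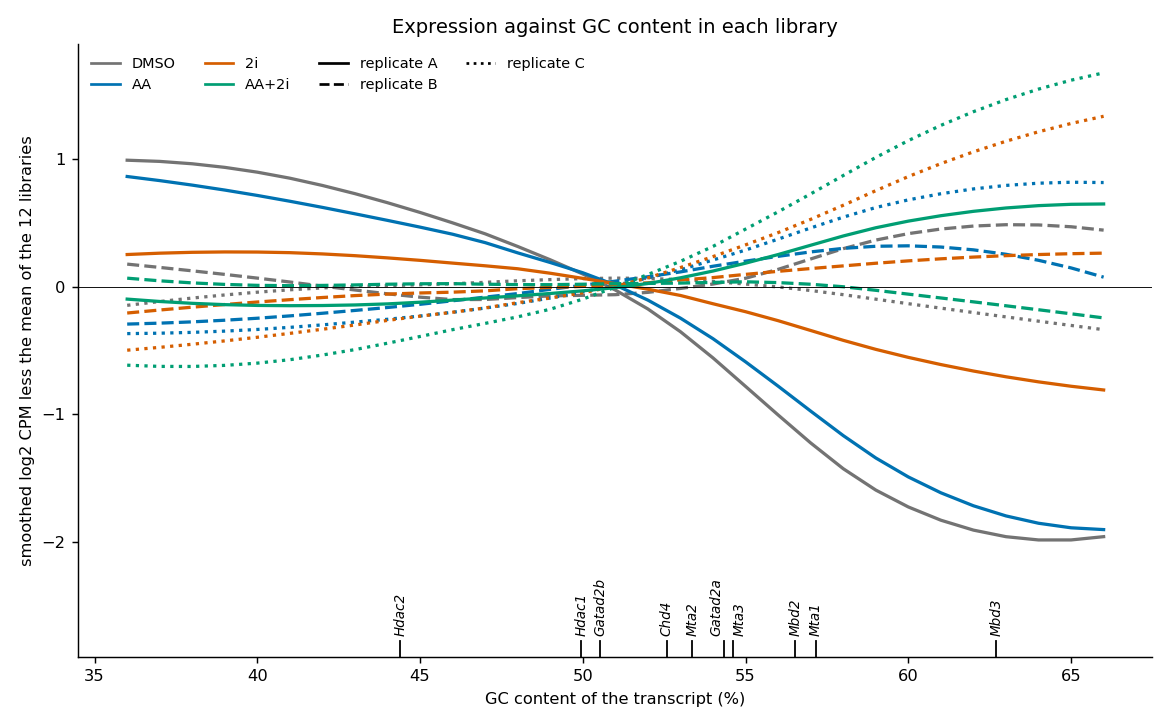
Smoothed deviation of log2 CPM from the mean of the 12 libraries (y axis) against the GC content of the transcript in percent (x axis), 1 curve per library, with colours for the condition and line styles for the replicate. Ticks at the bottom give the GC content of the 10 NuRD subunits: the curves of DMSO A and AA A fall away to the right, and at the tick of Mbd3 they stand at -1.95 and -1.78.

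No NuRD subunit passed the test against DMSO in any treatment, in a model of the 4 conditions without a term for the replicate letter. With edgeR's quasi-likelihood test on the expected counts and an adjusted p under 0.05, 0 of the 10 subunits were called under AA, where 1.34% of all tested genes were called, 0 of 10 under 2i (4.42% of all genes) and 0 of 10 under AA+2i (8.34%). At an unadjusted p under 0.05 the number was 0 under AA (9.43% of all tested genes), 0 under 2i (16.1%) and 1 under AA+2i (Hdac2, 24.8%), and DESeq2 also called 0 subunits in each comparison. The smallest adjusted p of any subunit was 0.756 under AA, 0.430 under 2i and 0.159 under AA+2i. The median log2 fold change over the 10 subunits was 0.14 under AA, 0.08 under 2i and 0.14 under AA+2i, beside medians over all tested genes of -0.01, -0.02 and -0.02. In edgeR with a term for the letter, 2 subunits passed under AA+2i (Hdac2 and Gatad2b, adjusted p = 0.0241 and 0.00951), as did 4229 of the 13400 tested genes. Under AA and under 2i 0 subunits passed in that model. All 3 comparisons share the DMSO libraries. In these bulk samples, fewer cells that express a gene and less RNA per cell cannot be told apart.

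With the curve of each library entered as an offset (the GC correction), the subunits called were again 0 of 10 in each comparison, while the share of all tested genes called was 4.12% under AA, 12.4% under 2i and 19.9% under AA+2i. At an unadjusted p under 0.05 there were then 0, 2 and 2 subunits, where the shares of all tested genes were 16.5%, 26.6% and 34.2%. The smallest adjusted p values were those of Hdac2 (0.0517) and Hdac1 (0.0761) under AA+2i and of Mta3 (0.0857) under 2i. The correction turned the median over the subunits to 0.01 under AA, -0.21 under 2i and -0.35 under AA+2i. Counted by whether the TPM of the 3 treated and the 3 DMSO libraries overlap, 1 subunit stood apart in each comparison: Mta3 under AA (9.49% of all tested genes), Mta3 under 2i (19.9%) and Hdac2 under AA+2i (32.1%). These shares of 1 in 10 are close to or below those of all genes. On the GC-corrected log2 CPM, 0 subunits stood apart under AA (17.3% of all tested genes), 3 under 2i (Mbd3, Mta3 and Gatad2a, 28.6%) and 3 under AA+2i (Mbd3, Hdac1 and Hdac2, 34.5%), again close to or below the shares of all genes.

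**Figure D2:**
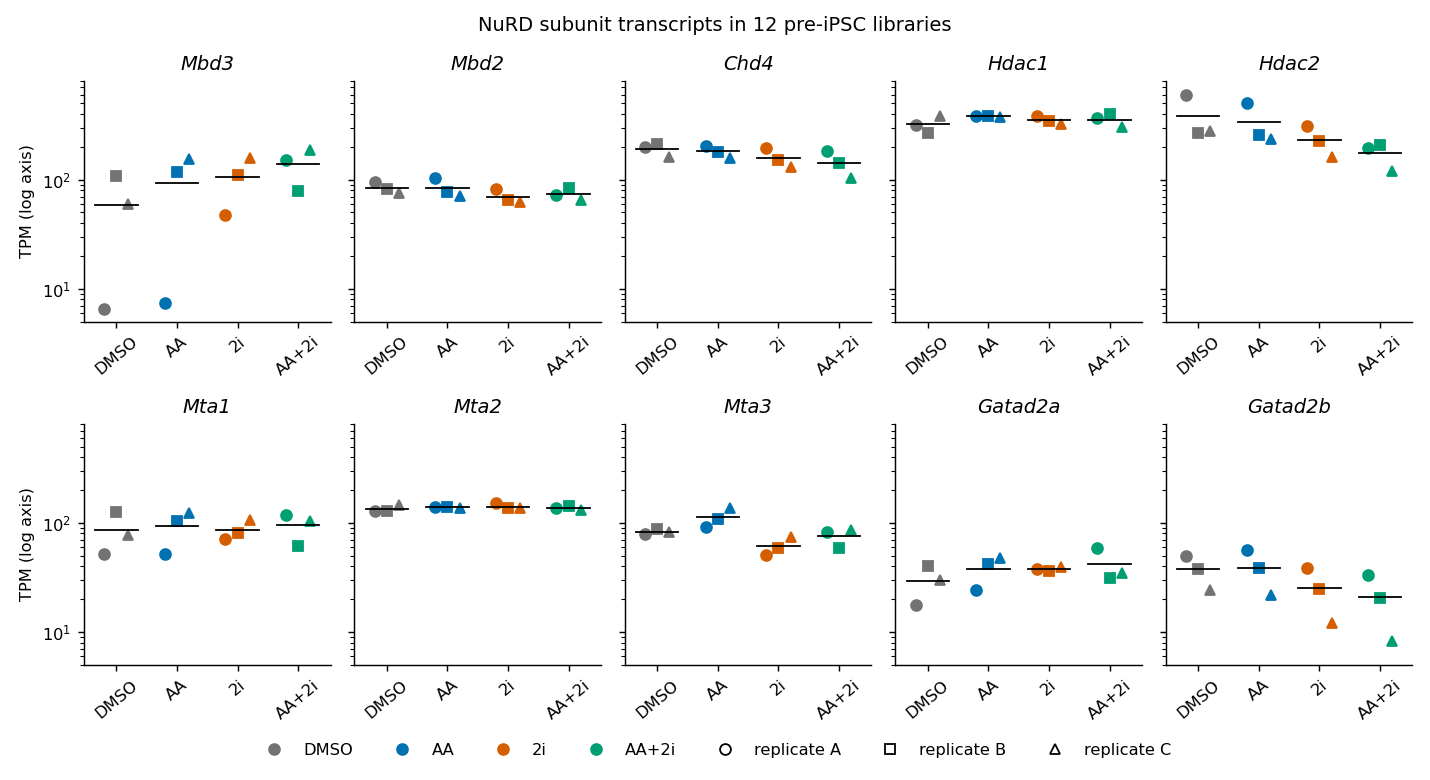
TPM on a log axis for the 10 NuRD subunits in the 12 libraries, by condition (colour) and replicate (marker), with a bar at the mean of the 3 libraries. Mbd3 spans 6.48 to 185 TPM with its lowest points in DMSO A and AA A, while Mta2 stays between 128 and 151 TPM.

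Of the methyl-CpG-binding subunits, Mbd3 had the widest spread of any member. Its TPM, which is scaled per length and library, was 6.48, 108 and 60.1 in the DMSO replicates A, B and C. Under AA it was 7.39, 117 and 154, under 2i 47.0, 109 and 159, and under AA+2i 150.0, 79.3 and 185. DMSO A and AA A were the lowest, with 2i A next and the other 9 libraries above it, and each treated group overlapped the DMSO group in TPM. On the GC-corrected log2 CPM scale the 3 DMSO libraries were at 4.32, 5.68 and 5.81, the 2i libraries at 5.92, 6.30 and 6.05 and the AA+2i libraries at 6.33, 6.14 and 6.05, so that both groups with 2i lay above DMSO. The AA libraries, at 4.21, 6.22 and 6.13, overlapped it. The highest library held 28.6 times the TPM of the lowest, and the expected counts ran from 83 to 5118. The within-condition SD of log2 CPM was 1.72, larger than that of 99.2% of the tested genes.

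The log2 fold change of Mbd3 against DMSO was 0.79 (SE 1.00) under AA, 1.13 (SE 1.01) under 2i and 1.55 (SE 1.02) under AA+2i, with adjusted p = 0.951, 0.604 and 0.328 (edgeR). Letter by letter the difference in log2 CPM under AA+2i was 4.56 in A, -0.16 in B and 1.91 in C. After the GC correction the log2 fold changes were 0.36 (SE 0.43), 0.67 (SE 0.43) and 0.74 (SE 0.43), with adjusted p = 0.767, 0.358 and 0.244. With DMSO A and AA A left out, they were 0.82, 0.60 and 1.02 on the counts as deposited. With those libraries left out and the GC correction applied, they were 0.45 (SE 0.15), 0.37 (SE 0.14) and 0.42 (SE 0.14), with adjusted p = 0.181, 0.119 and 0.0642. The estimates were positive in every one of these fits and passed the threshold in none.

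Mbd3 followed the GC curve of the library. Across the 12 libraries its log2 CPM correlated with the curve at 60% GC with Pearson's r = 0.980 and Spearman's rho = 0.965 (permutation test, p = 1e-05 for both, the smallest that 100000 resamples can give, and adjusted p = 6.67e-05 and 5e-05 over the 10 subunits). Leaving out DMSO A and AA A, the 2 libraries farthest from the median, left r at 0.960 over 10 libraries. The curve comes from all genes of the same libraries, so library and depth are shared by both axes. The permutations shuffled all 12 libraries without regard to condition or letter. The share of all tested genes that follow the curve as closely is not given. The p-values with the curve, here and for the other subunits, are therefore descriptive and do not single out a gene. Mbd3 moved by 1.88 log2 units for each log2 unit of the curve at 60%, and after the correction r was still 0.853. The correction thus narrowed its SD from 1.72 to 0.71, still above 94.2% of the tested genes.

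The genes whose log2 CPM resembled that of Mbd3 most across the 12 libraries were Gnb2 (r = 0.998), 1110008J03Rik (0.997), Uqcr10 (0.997), Rps15 (0.997) and Fance (0.997), given as a description. Their transcripts had GC contents of 61.4%, 59.1%, 55.5%, 57.8% and 61.3%, and the median of the 100 most alike was 58.3%. After the GC correction the order was Gnb2 (0.988), Flad1 (0.981), Mcrs1 (0.981), Zfp524 (0.974) and Trappc6a (0.972), with a median GC content of 57.1% in the 100 most alike. All these points share the libraries and their composition, and the most alike member of the complex before the correction was Mta1 (r = 0.904).

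Mbd2, the paralogue that binds methylated DNA, was far steadier. Its TPM was 95.0, 82.0 and 76.2 under DMSO, 105, 77.8 and 71.1 under AA, 81.2, 65.7 and 62.7 under 2i and 72.7, 83.0 and 65.7 under AA+2i. The groups overlapped, and the highest library was 1.67 times the lowest. The log2 fold changes were 0.01 (SE 0.18) under AA, -0.10 (SE 0.18) under 2i and 0.00 (SE 0.18) under AA+2i. Although its GC content was 56.5%, Mbd2 was highest in AA A and DMSO A, and its correlation with the curve was negative (r = -0.810, rho = -0.629, permutation p = 0.00235 and 0.0328, adjusted 0.0047 and 0.0411), with r = -0.374 once DMSO A and AA A were left out. The GC correction widened its SD from 0.18 to 0.73 and moved the log2 fold change under AA+2i to -0.80 (SE 0.51, adjusted p = 0.287). When DMSO A and AA A were left out, the corrected values were -0.24 under AA, 0.07 under 2i and -0.08 under AA+2i, and those on the deposited counts were 0.02, 0.04 and 0.13.

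**Figure D3:**
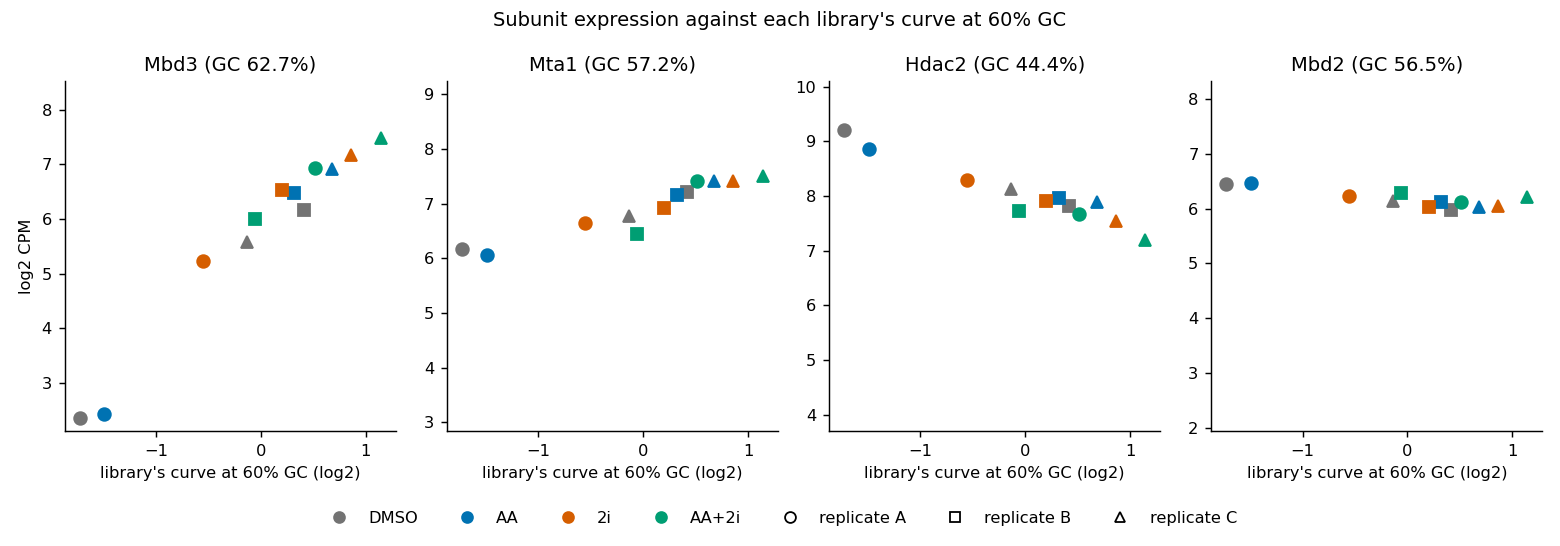
Log2 CPM of Mbd3, Mta1, Hdac2 and Mbd2 (y axis, the same span in each panel) against the curve of the library at 60% GC (x axis, log2), with 1 point per library, colours for the condition and markers for the replicate. Mbd3 climbs steeply (r = 0.980), Mta1 less so (r = 0.940), Hdac2 falls (r = -0.961) and Mbd2 falls slightly (r = -0.810).

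The ATPase Chd4 was at 199.7, 212 and 159.5 TPM under DMSO, 205, 181 and 159 under AA, 194, 151 and 130.2 under 2i, and 182, 142 and 103.7 under AA+2i. Its lowest library was AA+2i C, and the groups overlapped. The log2 fold changes were -0.04 (SE 0.20) under AA, -0.08 (SE 0.20) under 2i and -0.22 (SE 0.20) under AA+2i, and -0.13, -0.21 and -0.39 after the GC correction, with adjusted p of 0.247 or more. Without DMSO A and AA A the AA+2i value was -0.15 on the deposited counts and -0.20 with the correction, and the corrected 2i value was -0.01. Within each of the 3 letters the AA+2i library was below the DMSO library, by 0.08 to 0.33 in size on the log2 CPM scale. Chd4 was lower in libraries with a higher curve at 60% (r = -0.683, rho = -0.629, permutation p = 0.0140 and 0.0314, adjusted 0.0200 and 0.0411), and r was -0.570 without DMSO A and AA A.

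The deacetylases differed from each other. Hdac1 was at 315, 268 and 381 TPM under DMSO, 385, 381 and 377 under AA, 386, 342 and 326 under 2i, and 364, 395 and 306 under AA+2i. DMSO B was its lowest library, and the groups overlapped. Its log2 fold changes were 0.25 (SE 0.19), 0.29 (SE 0.19) and 0.33 (SE 0.19) under AA, 2i and AA+2i, and 0.27 (SE 0.15), 0.33 (SE 0.15) and 0.41 (SE 0.15) after the GC correction, with adjusted p = 0.407, 0.182 and 0.0761. With DMSO A and AA A left out, the corrected values were 0.33, 0.31 and 0.40, with adjusted p = 0.429, 0.280 and 0.146. Hdac1 sits near the middle of the GC range and showed no detectable relation with the curve (r = 0.106, rho = 0.112, permutation p = 0.724 and 0.734, adjusted the same, and r = -0.139 without DMSO A and AA A).

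Hdac2 was at 594, 268 and 277 TPM under DMSO, 507, 257 and 237 under AA, 311, 224 and 163 under 2i, and 197, 207 and 119.7 under AA+2i. Every AA+2i library lay below every DMSO library, and DMSO A and AA A were the highest of all. The log2 fold changes were -0.20 (SE 0.39) under AA, -0.56 (SE 0.39) under 2i and -0.96 (SE 0.39) under AA+2i, with adjusted p = 0.956, 0.514 and 0.159. The GC correction brought them to -0.01 (SE 0.17), -0.27 (SE 0.17) and -0.51 (SE 0.17), with adjusted p = 0.986, 0.336 and 0.0517. When DMSO A and AA A were left out, the AA+2i value was -0.44 on the deposited counts and -0.29 with the correction (adjusted p = 0.315 and 0.164), and the 2i value was -0.03 and -0.05. Hdac2 ran against the curve across the libraries (r = -0.961, rho = -0.895, permutation p = 2e-05 and 0.00024, adjusted 6.67e-05 and 0.0008), and r was -0.861 without DMSO A and AA A.

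Among the Mta scaffold subunits, Mta2 was the steadiest member of the complex. Its TPM lay between 128 (DMSO B) and 151 (2i A) in all 12 libraries, with means of 135 ± 10.7, 138 ± 2.30, 141 ± 9.25 and 136 ± 5.36 (SD, n = 3) under DMSO, AA, 2i and AA+2i. The log2 fold changes were 0.06 (SE 0.16), 0.24 (SE 0.16) and 0.22 (SE 0.16), and with the GC correction -0.07, 0.06 and -0.04. Without DMSO A and AA A the corrected values were -0.03, 0.23 and 0.13, so the direction under AA+2i depended on these libraries as well. Each treated group overlapped DMSO. The relation with the curve was weak (r = 0.307, rho = 0.378, permutation p = 0.328 and 0.231, adjusted 0.364 and 0.256, and r = 0.0271 without DMSO A and AA A).

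Mta1 was at 51.7, 126 and 77.3 TPM under DMSO, 52.1, 105 and 122 under AA, 71.2, 81.0 and 106 under 2i, and 118, 60.8 and 105 under AA+2i. DMSO A and AA A were again the lowest, and the groups overlapped. Its log2 fold changes of 0.21 (SE 0.40), 0.25 (SE 0.40) and 0.41 (SE 0.40) turned to -0.13 (SE 0.18), -0.21 (SE 0.18) and -0.32 (SE 0.18) with the GC correction, so the direction depended on it in all 3 comparisons. With DMSO A and AA A left out, the corrected values were 0.02, -0.01 and -0.12, and those on the deposited counts were 0.29, 0.02 and 0.17. Mta1 followed the curve closely (r = 0.940, rho = 0.951, permutation p = 2e-05 and 1e-05, adjusted 6.67e-05 and 5e-05), with r = 0.889 in the 10 other libraries.

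Mta3 was at 78.8, 88.3 and 82.0 TPM under DMSO and at 90.7, 109 and 138 under AA, so that the AA libraries lay above all DMSO libraries. Under 2i it was at 51.0, 58.7 and 74.2, below all DMSO libraries, and under AA+2i at 82.7, 59.2 and 86.1, overlapping them. The log2 fold changes were 0.43 (SE 0.26) under AA, -0.25 (SE 0.26) under 2i and 0.07 (SE 0.26) under AA+2i, with adjusted p = 0.756, 0.646 and 0.869. After the GC correction they were 0.19 (SE 0.20), -0.59 (SE 0.20) and -0.40 (SE 0.20), with adjusted p = 0.723, 0.0857 and 0.187. When DMSO A and AA A were left out, the corrected values were 0.41, -0.31 and -0.12, with adjusted p = 0.287, 0.25 and 0.654. The direction under AA+2i therefore changed with the correction, while that under AA and under 2i did not. With the curve Mta3 gave r = 0.375 and rho = 0.657 (permutation p = 0.230 and 0.0230, adjusted 0.287 and 0.0384), and r = 0.713 without DMSO A and AA A.

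The Gatad2 genes had the lowest mean TPM of the 10 subunits in every condition, although Mbd3 was lower than both in DMSO A and AA A. Gatad2a was at 17.5, 40.6 and 30.1 TPM under DMSO, 24.5, 42.3 and 47.4 under AA, 38.1, 36.5 and 39.6 under 2i, and 58.6, 31.2 and 34.9 under AA+2i, and the groups overlapped. Its log2 fold changes were 0.44 (SE 0.33), 0.59 (SE 0.33) and 0.73 (SE 0.34), and 0.26 (SE 0.20), 0.39 (SE 0.20) and 0.42 (SE 0.20) after the GC correction, where the adjusted p were 0.580, 0.228 and 0.157. Without DMSO A and AA A the values were 0.46, 0.35 and 0.48 on the deposited counts and 0.29, 0.32 and 0.34 with the correction. Its correlation with the curve was r = 0.865 and rho = 0.853 (permutation p = 0.00052 and 0.00066, adjusted 0.0013 and 0.00165), and r was 0.545 without DMSO A and AA A.

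Gatad2b was at 50.0, 37.9 and 24.4 TPM under DMSO, 56.5, 38.2 and 22.0 under AA, 38.3, 24.8 and 12.1 under 2i, and 33.3, 20.7 and 8.34 under AA+2i. Within every condition the A library was the highest and the C library the lowest, and the groups overlapped. Letter by letter, each AA+2i library was below its DMSO counterpart, by 0.54, 0.59 and 1.25 in size on the log2 CPM scale. With a term for the letter in the edgeR model, the log2 fold change was 0.03 under AA, -0.49 (SE 0.17, adjusted p = 0.0921) under 2i and -0.79 (SE 0.17, adjusted p = 0.00951) under AA+2i. Without that term the log2 fold changes were 0.06 (SE 0.50), -0.42 (SE 0.50) and -0.69 (SE 0.50), and 0.04 (SE 0.45), -0.43 (SE 0.46) and -0.67 (SE 0.46) after the GC correction. At a GC content of 50.5% the correction hardly moved them, and its SD was 0.68 against 0.70 before. With DMSO A and AA A left out, the values were 0.08, -0.09 and -0.38 on the deposited counts and 0.05, -0.12 and -0.37 with the correction. Gatad2b was lower in libraries with a higher curve (r = -0.788, rho = -0.741, permutation p = 0.00283 and 0.0073, adjusted 0.00472 and 0.0146), with r = -0.677 without DMSO A and AA A.

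**Figure D4:**
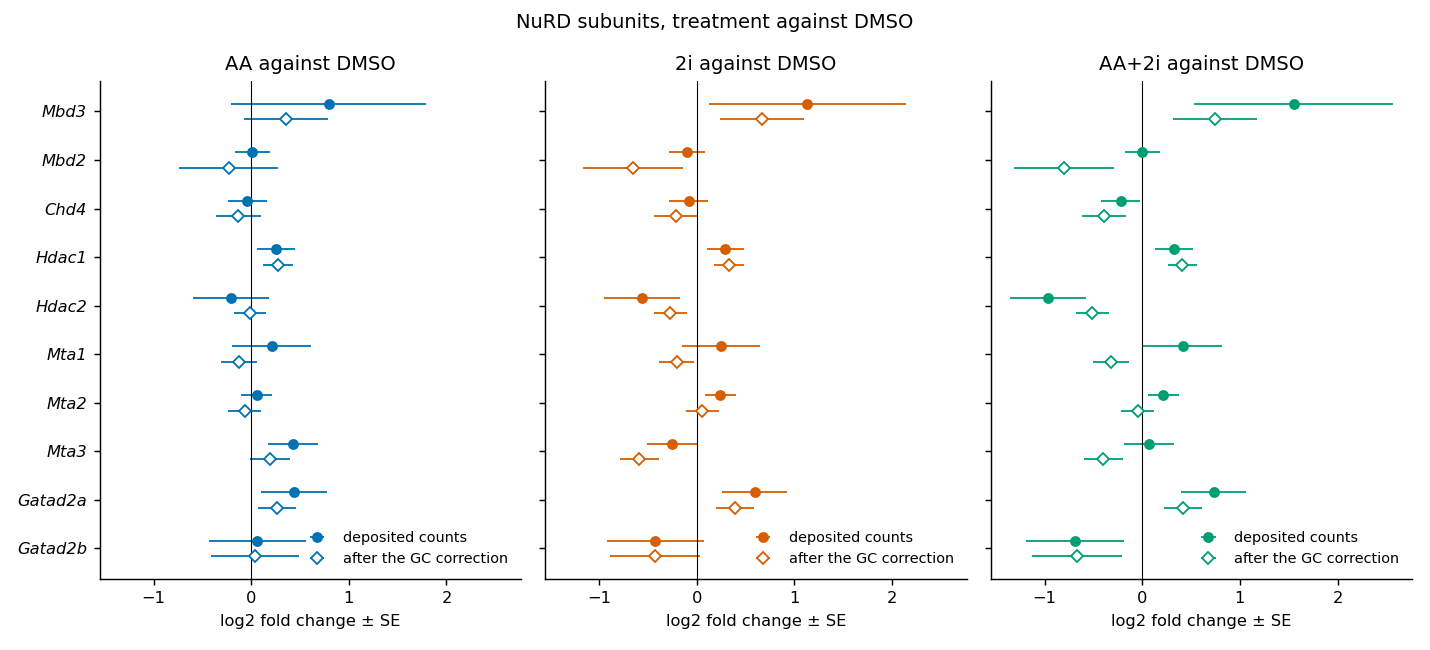
Log2 fold change against DMSO (x axis) of the 10 NuRD subunits under AA, 2i and AA+2i, from the deposited counts (filled circles) and after the GC correction (open diamonds), with bars of 1 SE. Mbd3 has the longest bars, Mta1 changes side with the correction in each panel, and Mbd2 moves away from 0 under AA+2i (from 0.00 to -0.80).

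Over the 10 subunits, 7 had a smaller within-condition SD after the GC correction, and Mbd2, Chd4 and Mta2 had a larger one. Of all tested genes with a known GC content, 76.5% had a smaller SD, and the median over all tested genes went from 0.41 to 0.26.

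Because paralogues can replace each other in the complex, their TPM ratios were compared across the 4 conditions with an exact permutation test of the F statistic over the 15400 arrangements of the 12 libraries, two-sided by construction and adjusted over 5 ratios. For Hdac2 to Hdac1, the ratio in the replicates A, B and C was 1.89, 1.00 and 0.727 under DMSO, 1.32, 0.676 and 0.629 under AA, 0.806, 0.656 and 0.499 under 2i, and 0.541, 0.524 and 0.391 under AA+2i. Hdac2 was the more abundant in 3 of 12 libraries, none of them treated with 2i. The mean log2 ratio was 0.15 ± 0.70, -0.28 ± 0.59, -0.64 ± 0.35 and -1.06 ± 0.26 (SD, n = 3) in that order. With the replicate letters ignored, the conditions did not differ beyond the spread on the deposited values (exact permutation p = 0.0767, adjusted 0.233). Permuted within letters, the deposited ratio did differ (adjusted p = 0.00434). With the GC correction and the letters ignored, the conditions differed (exact permutation p = 0.0173, adjusted 0.0433). The corrected log2 ratio was 0.39, 0.00 and -0.41 under DMSO and -0.79, -0.93 and -1.04 under AA+2i, where the groups did not overlap. When DMSO A and AA A were left out, the corrected ratio still differed (exact permutation test over 25200 arrangements, adjusted p = 0.0405), and the deposited one did not (adjusted p = 0.358). After the correction Hdac2 still ran against the curve at 60% GC (r = -0.824), and Hdac1 gave r = 0.389. That curve stood at -1.73, 0.41 and -0.13 under DMSO and at 0.51, -0.06 and 1.14 under AA+2i. Whether this remaining relation bears on the corrected ratio was not tested.

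The Mta3 to Mta1 ratio was 1.53, 0.699 and 1.06 under DMSO, 1.74, 1.04 and 1.13 under AA, 0.717, 0.724 and 0.702 under 2i, and 0.700, 0.973 and 0.820 under AA+2i. All 3 AA libraries were above all 2i libraries and all AA+2i libraries. The exact permutation p was 0.0931 (adjusted 0.233) on the deposited values and 0.0125 (adjusted 0.0433) after the GC correction, with corrected mean log2 ratios of -0.09 ± 0.21, 0.28 ± 0.12, -0.44 ± 0.21 and -0.11 ± 0.21 (SD, n = 3). Without DMSO A and AA A the corrected ratio no longer passed (adjusted p = 0.114). With any 1 letter left out neither corrected ratio passed, with adjusted p of 0.0952 or more, where the smallest that the 105 arrangements allow is 0.0476.

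The other ratios did not pass the permutation test that ignores the replicate letters, before or after the correction. Mbd3 to Mbd2 ran from 0.0682 in DMSO A to 2.82 in AA+2i C, and Mbd3 was the more abundant in 7 of 12 libraries. In DMSO A and AA A it made up 6.39% and 6.60% of the pair, against 36.7% to 73.8% elsewhere. The exact permutation p was 0.50 (adjusted 0.625), and 0.475 (adjusted 0.475) after the correction. Gatad2b to Gatad2a ran from 0.239 (AA+2i C) to 2.86 (DMSO A), with mean log2 ratios of 0.37 ± 1.00 under DMSO and -1.16 ± 0.79 under AA+2i (SD, n = 3) and an exact permutation p of 0.273 (adjusted 0.456). Mta2 exceeded Mta1 in 12 of 12 libraries, by 1.01 to 2.70 times, with an exact permutation p of 0.986 (adjusted 0.986).

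**Figure D5:**
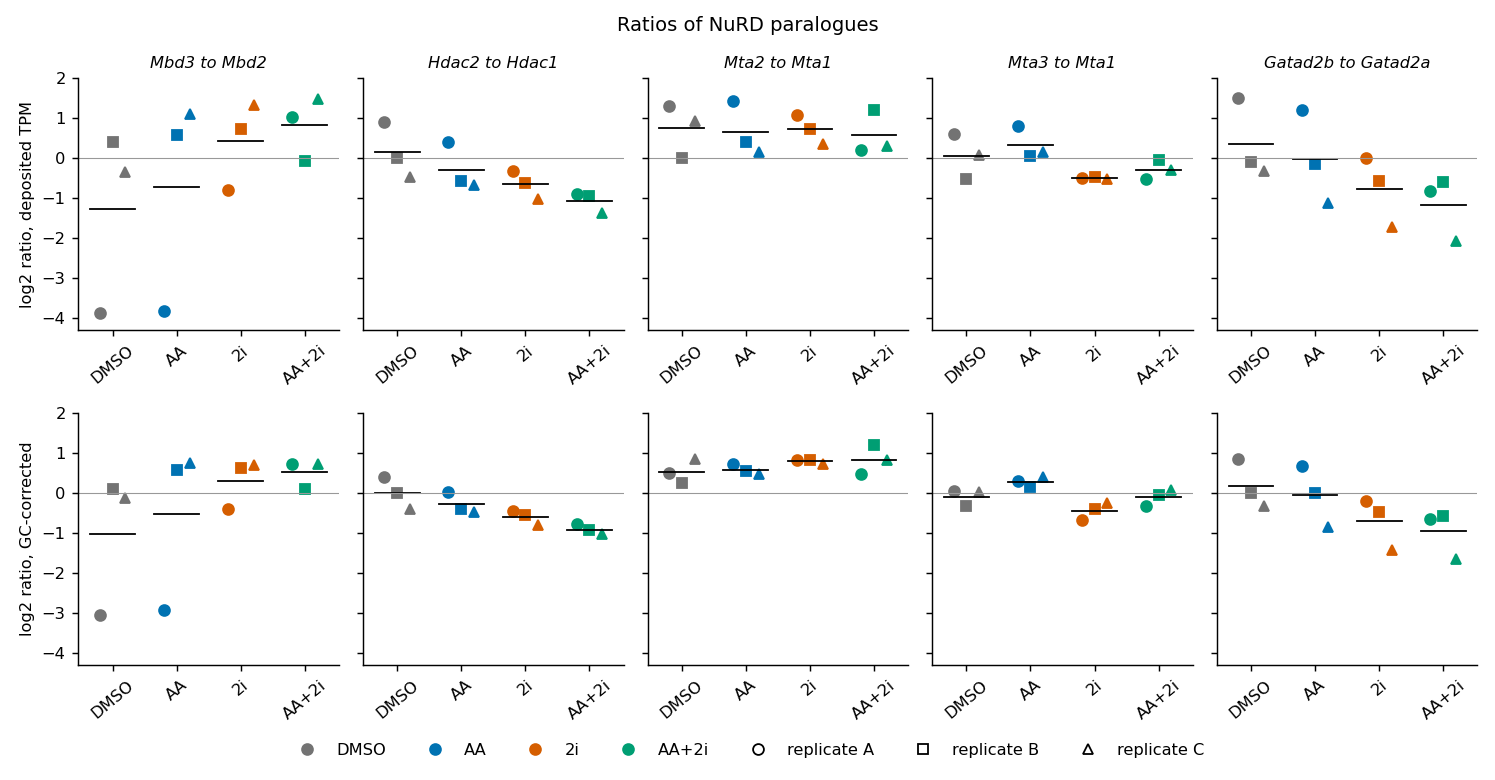
Log2 TPM ratio of 5 paralogue pairs by condition, as deposited (upper row) and after the GC correction (lower row), with 1 point per library, markers for the replicate and a bar at the mean. The Hdac2 to Hdac1 points narrow within each condition after the correction and step down from DMSO to AA+2i, while the Mbd3 to Mbd2 points of DMSO A and AA A stay near -3 (-3.05 and -2.93).

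Of 7 further NuRD subunits, 5 passed the count filter, and Mbd3l1 and Mbd3l2, relatives of Mbd3, had at most 1 and 6.1 expected counts in a library. Of these 5, 1 was called under 2i (4.42% of all tested genes) and 1 under AA+2i (8.34%). This was Chd3 in both, a helicase that can take the place of Chd4. Its TPM was 31.4, 51.8 and 37.0 under DMSO, 28.2, 36.4 and 31.8 under AA, 67.5, 64.2 and 72.7 under 2i, and 67.8, 55.1 and 56.3 under AA+2i, so that all 6 libraries with 2i were above all 6 without it. Of all tested genes, 19.9% stood apart from DMSO in TPM under 2i and 32.1% under AA+2i. The log2 fold change was 0.98 (SE 0.19, adjusted p = 0.0164) under 2i and 0.80 (SE 0.19, adjusted p = 0.0268) under AA+2i, and -0.27 (SE 0.19, adjusted p = 0.865) under AA. With the GC correction (its GC content was 56.2%) these became 0.56 (adjusted p = 0.183) and 0.18 (adjusted p = 0.650), so neither call was kept. With DMSO A and AA A left out, both were kept on the deposited counts (0.86 and 0.68, adjusted p = 0.0244 and 0.0451), and with the correction as well the 2i call was kept (0.85, adjusted p = 0.0112) and the AA+2i value was 0.47 (adjusted p = 0.0899). Leaving out DMSO A, 2i B or 2i C also ended the call under 2i (adjusted p = 0.0541, 0.0540 and 0.0754), and leaving out DMSO A, DMSO C, AA+2i A or AA+2i C that under AA+2i (0.0897, 0.0608, 0.0887 and 0.0966). Without letter A, B or C both calls were lost (adjusted p = 0.0766, 0.225 and 0.277 under 2i, and 0.130, 0.182 and 0.259 under AA+2i). The same held with only the groups compared (0.0983 and 0.119). The GC correction widened the SD of Chd3 from 0.20 to 0.35.

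The histone-binding subunits Rbbp4 and Rbbp7 were not called. Rbbp4 was at 109.7 to 376 TPM and Rbbp7 at 284 to 703 TPM, both lowest in AA+2i C and highest in DMSO A, with log2 fold changes under AA+2i of -0.55 (SE 0.36) and -0.29 (SE 0.32). The correction moved these to -0.09 and 0.14, leaving out DMSO A and AA A moved them to -0.14 and 0.10, and the GC contents were 43.8% and 44.7%, close to Hdac2. Cdk2ap1, a small subunit, was at 257 to 447 TPM with a log2 fold change of 0.17 (SE 0.26) under AA+2i. Chd5 was near the limit of detection, at 0.11 to 0.52 TPM. It fell under AA+2i after the GC correction (by 1.57 on the log2 scale, SE 0.35, adjusted p = 0.00842, and 0.0198 without DMSO A and AA A), and the value on the deposited counts was -0.97 (SE 0.57, adjusted p = 0.292). With the correction, Chd5 was 1 of 5 tested further subunits called under AA+2i, where 19.9% of all tested genes were called.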

How the data were processed

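RNA was measured in 12 libraries of pre-iPSCs, 3 for each of 4 conditions. Per the labels and the study's methods, TruSeq libraries were sequenced, and the reads trimmed, quality-filtered, aligned with Bowtie2 (Bowtie in the processing notes) to RefSeq genes of mm9 and quantified with RSEM 1.2.4 without strand. The authors deposited, for each library, expected counts, which are estimated by RSEM, need not be whole and are not normalized, and TPM, which is scaled by length and library. The deposited lengths were used to choose the nearest transcript, which need not be the isoform that was quantified. For Mbd2 it had 1953 bases against 1850 deposited in DMSO A, and for Mta3 1729 against 1895.5.

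After rounding, edgeR 4.0.16 (R 4.3.3) was run on expected counts (RLE factors, quasi-likelihood test, 1 model of the 4 conditions with 8 residual degrees of freedom) for 13400 genes reaching 10 counts in 3 or more libraries, with Benjamini-Hochberg adjustment and a threshold of 0.05. EB-seq, used by the study, was not run. The SE was taken as the size of the estimate over the root of its F statistic. The GC content came from GENCODE vM1 transcripts on the same build (19871 genes matched by symbol, 142 by accession, 16 by synonym, 296 unmatched). The GC correction fitted to each library a robust loess (span 0.4) of log2 CPM (prior count 2), less its mean over libraries, against GC content and used it as an offset. Of the tested genes, 13302 had a GC content. One malformed TPM cell, of a gene that is no NuRD subunit, was not used.

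The alternatives were TMM factors, DESeq2 1.42.0, no count filter, only the groups compared, the replicate block, the GC correction, both together, and each library or letter left out. The study's methods call the replicates biological, without saying how they were separated, so p-values measure the spread between these libraries. The members and lists were chosen with earlier results of these data known. Genes named are the 10 subunits, the tested genes of the further subunit list, called genes of the other lists (at most 4 a list) and the 5 genes most like Mbd3. The scripts were tested on simulated data. Python 3.11.15 with scipy 1.17.1 ran the permutation tests. A result of 1 gene in the related lists is not reported here.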

Additional observations from a re-analysis of the deposited data

How the results depend on the processing

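The count of subunits called stayed at 0 in every comparison with TMM factors, without the count filter, with DESeq2, with only the groups compared in the model, with any 1 library or letter left out and with DMSO A and AA A left out. With the GC correction, leaving out 1 library or letter gave 0 under AA, 0 to 1 under 2i and 0 to 1 under AA+2i. Mta3 (2i) and Hdac2 (AA+2i) passed without DMSO B, and Hdac1 (both) without DMSO C. With all libraries the correction called 12.4% of all tested genes under 2i and 19.9% under AA+2i, and the shares in the reduced fits are not given. Leaving out DMSO A and AA A, and leaving out libraries under the GC correction (the ratios included), were chosen after seeing the data. Of 690 alternative values of the subunits' log2 fold changes, 639 kept their direction and their side of the threshold, 43 that were not called changed sign and 8 passed the threshold. The GC correction turned the direction of Mbd2, Mta1 and Mta2 under AA, of Mta1 under 2i, and of Mbd2, Mta1, Mta2 and Mta3 under AA+2i. With 3 libraries per group and an SD of 1.72 for Mbd3, changes of the size seen could not be told from the spread.

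All genes called under AA, 2i and AA+2i numbered 179, 592 and 1117 in the main model. They were 0, 187 and 581 with only the groups compared, 552, 1660 and 2662 with the GC correction, and 454, 1099 and 1879 with DESeq2. Without DMSO A and AA A there were 106 under AA. With 1 library or letter left out they ranged from 0 to 164, from 11 to 658 and from 18 to 1406, and the lowest came without replicate B. Where edgeR gave 0 under AA, 733 genes (only the groups compared) and 462 (without replicate B) had an unadjusted p under 0.05. The cause was not tested.

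The greatest difference between condition means of the Hdac2 to Hdac1 log2 ratio was 1.21 as deposited (adjusted p = 0.233) and 0.91 with the GC correction (0.0433), and that of Mta3 to Mta1 was 0.83 (0.233) and 0.73 (0.0433). With 1 letter left out, the ranges were 0.92 to 1.37 for Hdac2 to Hdac1, 0.60 to 0.98 for Mta3 to Mta1, 1.01 to 3.38 for Mbd3 to Mbd2, 0.25 to 0.86 for Mta2 to Mta1 and 1.13 to 2.05 for Gatad2b to Gatad2a, with no ratio passing on the deposited values. With the correction they were 0.78 to 1.06 for Hdac2 to Hdac1 and 0.60 to 0.81 for Mta3 to Mta1, and the latter was 0.71 without DMSO A and AA A (adjusted p = 0.114).

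The replicate letters were checked as a pairing. Of 18 pairs of libraries with the same letter, 15 had deviations from the condition means that correlated above 0.1 (range -0.59 to 0.89, mean 0.40), and 11 of 12 libraries correlated best with their own letter, which is a hint that letters share something. The rule for taking them as pairs asked for every pair to be above 0.1, and 3 pairs were not, so the model without the letter was kept. With the letter as a replicate block, 594, 1782 and 4229 genes were called, and 1490, 3389 and 4865 with the GC correction and the replicate block. Under AA+2i, 2 subunits then passed with the block (Hdac2 and Gatad2b, adjusted p = 0.0241 and 0.00951) and 4 with the block and the correction (Chd4, Hdac1, Hdac2 and Gatad2b, 0.00469, 0.0224, 0.00895 and 0.00146). Under 2i, 2 passed with both (Mta3 and Gatad2b, 0.0238 and 0.0223). Permuting within letters, the ratio of Hdac2 to Hdac1 (1.21, and 0.91 with the correction) and that of Gatad2b to Gatad2a (1.53 and 1.14) gave adjusted p = 0.00434 in both forms, and Mta3 to Mta1 with the correction (0.73) gave 0.0231. Chd3 kept its calls with the block (adjusted p = 0.00544 under 2i and 0.00758 under AA+2i), and with the correction too under 2i (0.00736) but not under AA+2i (0.20).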

Other observations

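Beyond NuRD, genes of related repressor complexes and of factors that bring NuRD to chromatin were followed in lists chosen with earlier results of these data known. In the Sin3 complex (12 genes, all tested), which shares Hdac1 and Hdac2 with NuRD, 0 genes were called by edgeR in any comparison. The numbers at an unadjusted p under 0.05 were 0, 1 and 2 under AA, 2i and AA+2i. Over all tested genes 1.34%, 4.42% and 8.34% were called in these comparisons, and 9.43%, 16.1% and 24.8% had an unadjusted p under 0.05. The median log2 fold changes of the Sin3 genes were 0.11, -0.00098 and 0.06. In the CoREST complex (8 genes, all tested), built around the demethylase Kdm1a, 0 genes were called in any comparison, with 0, 0 and 3 at an unadjusted p under 0.05 (24.8% of all tested genes under AA+2i) and medians of 0.09, -0.11 and -0.15. Likewise 0 of 6 other methyl-CpG binders and 0 of 5 other class I deacetylases and corepressor partners were called, with 0 at an unadjusted p under 0.05 in both. After the GC correction Arid4a of the Sin3 list (-0.48, adjusted p = 0.0146) and Zmynd8 of the CoREST list (-0.38, adjusted p = 0.0349) fell under 2i. They were 1 of 12 and 1 of 8 tested genes, where 12.4% of all tested genes were called. Zfp281, a zinc-finger factor of the recruiting list, fell under AA+2i after the correction (-0.40, adjusted p = 0.0181). It was 1 of 2 called among 9 tested recruiting factors, where 19.9% of all tested genes were called. Arid4a, Zmynd8 and Zfp281 were outside the rule for named genes and were named after their values were seen.

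Of 11 factors that recruit NuRD, 9 were tested. By edgeR 1 was called under AA, 1 under 2i and 1 under AA+2i, beside 1.34%, 4.42% and 8.34% of all tested genes. Sall3, a zinc-finger protein of the spalt family, fell under AA (log2 fold change -1.62, SE 0.31, adjusted p = 0.0296) and under AA+2i (-1.96, SE 0.31, adjusted p = 0.00357). Its TPM was 3.74 ± 1.38 under DMSO, 1.16 ± 0.09 under AA, 3.87 ± 0.71 under 2i and 0.82 ± 0.30 under AA+2i (SD, n = 3). After the GC correction the values were -1.79 and -2.28 (adjusted p = 0.0033 and 0.000242). Under AA+2i the call was kept with any 1 library left out and lost without letter B or C (adjusted p = 0.20 and 0.0574). Under AA it was lost when DMSO A, DMSO B, AA A, AA B, AA C or 2i B was left out (adjusted p = 0.0649, 0.108, 0.0727, 0.114, 0.109 and 0.0571). Whether the response to AA differed from that to 2i was not tested. Sall1 and Sall4, the spalt paralogues with higher levels (64.3 ± 17.5 and 38.2 ± 6.20 TPM under DMSO), were not called. Zfpm2 was called up under 2i (2.58, SE 0.56, adjusted p = 0.0269), but it had at most 36 counts in a library and 0.73 TPM, and the call was lost when DMSO A, DMSO B, DMSO C, 2i A or 2i C was left out (adjusted p = 0.0510, 0.0797, 0.0628, 0.0543 and 0.103).

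Of the marker lists, 3 of 5 epithelial genes were tested. Cdh1 rose under AA (1.13, adjusted p = 0.0180), 0 were called under 2i (1 at an unadjusted p under 0.05), and Cdh1, Epcam and Cldn7 rose under AA+2i (1.71, 1.10 and 2.52). Of 8 pluripotency genes, Nanog, Zfp42, Dppa5a and Tdgf1 rose under AA, Nanog, Esrrb, Zfp42 and Dppa5a rose under AA+2i, and Tdgf1 fell under 2i (-1.97, adjusted p = 0.00257). Of 10 fibroblast or feeder genes, 8 were tested, and Col3a1 was called up under AA+2i (2.25, adjusted p = 0.0205). All these values are from edgeR, where 1.34%, 4.42% and 8.34% of all tested genes were called under AA, 2i and AA+2i. After the GC correction (4.12%, 12.4% and 19.9% of all tested genes) these calls were kept. Epcam, Cldn7 and Utf1 were then also called up under AA. Thy1 was called down and Col3a1 up under 2i, and Pou5f1 (Oct4) was called down under AA+2i (-0.97, adjusted p = 0.0125). Without the correction Pou5f1 was not called there (-0.44, adjusted p = 0.536). Its level was 1865 to 9673 TPM. Oct4 is also a reprogramming factor, and its exogenous and endogenous RNA were not separated here. The fall therefore cannot be assigned to the endogenous gene. The paper reports a rise of the endogenous gene in the conditions with AA, and repression of the exogenous factors in all conditions.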
